A study of Mus musculus with 8 samples.

Results

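The genes described here drive cell division and copy DNA: 50 genes chosen by symbol, of which 49 had at least 1 probe set whose platform annotation named no other gene. Cyclin B1 (Ccnb1) had none and was not analysed here. The 49 genes were read by 118 probe sets, and stand among 18194 genes with a probe set of their own on the Affymetrix whole-genome mouse array. By role, 24 measured genes act in mitosis, 18 in DNA replication and its nucleotide supply, and 7 regulate the G1 phase, in which a cell commits to divide. The samples were cochleae of 8 mice of the inbred strain CBA/CaJ, all of 1 group called normal cochlea. Each array held RNA from the pooled ears of 1 mouse, so an array stands for a mouse and the numbers 1 to 8 are only names. Every mouse received urethane (300 mg/kg) and was perfused with saline, and soft tissue alone was collected, that is the modiolus, the organ of Corti and the spiral ligament, after its bony shell had been taken off. No sex, age or hybridization batch was used, and there was no second group, so the values describe levels and their spread between mice. Blood cells were meant to be washed out, and the removed shell bordered the collected tissue. In bulk RNA, fewer cells of a type and less RNA per cell cannot be told apart.

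Before a cell copies its DNA, the proteins Cdc6 and Cdt1 load the ring-shaped Mcm2 to Mcm7 helicase onto replication origins, and Cdc45 and the GINS complex turn it on. Cyclin E and cyclin D, held in check by the inhibitors Cdkn1a (p21) and Cdkn1b (p27), open the way into this phase. Later, cyclin A and cyclin B with the kinase Cdk1 start mitosis, aurora and polo-like kinases and kinesin motors build and work the spindle, and the ubiquitin ligase that holds Cdc20 and Ube2c ends it. Many replication genes carry sites for E2F factors near their start, while many mitotic genes carry a pair of CCAAT words and a word called CHR, through which the DREAM complex keeps them silent in resting cells. Hair cells and neurons of the adult cochlea do not divide. Replication proteins also serve in DNA repair, so their RNA is not a mark of dividing cells alone.

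The promoters of 6 members show these words. Each window runs from 250 bases before to 50 bases from the gene's start, 300 bases in all, as RefSeq gives it on the build GRCm38.p6, and is printed in the direction of the gene. Capitals mark every match, on either strand, of the E2F words TTTCCCGC, TTTCGCGC, TTTGCCGC and TTTGGCGC, the CHR word TTTGAA, and CCAAT. The word TATAAA was searched too. Top2a (chr11:99024140-99024439, minus strand), the topoisomerase that untangles sister chromosomes, Mki67 (chr7:135716330-135716629, minus strand), the chromosome surface protein known as the stain Ki-67, and Ube2c (chr2:164769679-164769978, plus strand), the ubiquitin-conjugating enzyme of mitotic exit, are shown for the mitotic genes.
Top2a: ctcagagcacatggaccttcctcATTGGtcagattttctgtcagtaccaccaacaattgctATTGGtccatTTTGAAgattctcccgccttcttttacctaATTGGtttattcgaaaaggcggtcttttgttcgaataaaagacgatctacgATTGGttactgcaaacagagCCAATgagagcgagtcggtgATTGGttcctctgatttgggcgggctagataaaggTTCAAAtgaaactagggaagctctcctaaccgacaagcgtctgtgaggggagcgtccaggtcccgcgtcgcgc
Mki67: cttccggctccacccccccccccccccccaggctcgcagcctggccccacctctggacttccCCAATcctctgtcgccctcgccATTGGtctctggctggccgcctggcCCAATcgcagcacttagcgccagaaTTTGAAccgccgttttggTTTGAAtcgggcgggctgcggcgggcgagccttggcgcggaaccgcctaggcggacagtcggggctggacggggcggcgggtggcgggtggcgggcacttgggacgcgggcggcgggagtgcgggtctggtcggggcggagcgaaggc
Ube2c: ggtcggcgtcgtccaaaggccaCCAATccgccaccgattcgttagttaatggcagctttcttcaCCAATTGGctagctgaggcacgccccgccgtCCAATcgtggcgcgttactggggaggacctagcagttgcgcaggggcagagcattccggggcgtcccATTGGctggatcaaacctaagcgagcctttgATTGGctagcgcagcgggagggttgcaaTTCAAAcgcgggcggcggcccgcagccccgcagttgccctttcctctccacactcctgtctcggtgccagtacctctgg
The helicase subunits Mcm5 (chr8:75109259-75109558, plus strand) and Mcm6 (chr1:128359656-128359955, minus strand) are shown for the replication genes, and Rrm2 (chr12:24708004-24708303, plus strand), a subunit of ribonucleotide reductase, because its signal followed the mitotic genes although its window held neither a CHR nor an E2F word.
Mcm5: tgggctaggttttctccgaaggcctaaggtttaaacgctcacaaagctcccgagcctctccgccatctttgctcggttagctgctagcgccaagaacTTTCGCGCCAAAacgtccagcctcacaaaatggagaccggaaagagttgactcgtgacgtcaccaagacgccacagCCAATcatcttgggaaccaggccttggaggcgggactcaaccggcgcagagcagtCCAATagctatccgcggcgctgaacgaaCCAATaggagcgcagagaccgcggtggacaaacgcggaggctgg
Mcm6: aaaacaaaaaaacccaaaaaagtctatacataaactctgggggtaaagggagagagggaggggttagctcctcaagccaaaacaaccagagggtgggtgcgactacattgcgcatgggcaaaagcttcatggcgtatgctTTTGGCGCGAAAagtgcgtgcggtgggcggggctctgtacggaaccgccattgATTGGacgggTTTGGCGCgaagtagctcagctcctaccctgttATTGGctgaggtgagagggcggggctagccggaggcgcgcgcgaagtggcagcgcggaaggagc
Rrm2: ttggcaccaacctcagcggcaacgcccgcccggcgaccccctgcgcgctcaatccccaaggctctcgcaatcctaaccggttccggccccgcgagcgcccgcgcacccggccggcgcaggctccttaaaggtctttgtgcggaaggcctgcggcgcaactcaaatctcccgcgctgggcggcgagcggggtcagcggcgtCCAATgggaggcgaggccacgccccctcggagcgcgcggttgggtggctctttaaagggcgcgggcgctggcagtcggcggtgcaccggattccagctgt
A capital run can hold words that overlap, as in Mcm5, where 2 E2F words on opposite strands share bases. The windows of Top2a and Mki67 held 2 CHR words each and that of Ube2c held 1, while Mcm5 and Mcm6 held 0 CHR words and 2 and 3 E2F words.

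Over all members, 39 genes had a window in the table, with 43 windows, since a gene with several starts has several and these can overlap. CHR stood in 15 of 21 mitotic windows (71.4%) and in 2 of 16 replication windows (12.5%), beside 17.9% of all 32851 windows of the same length. The replication windows with it were those of Mcm2 and Cdc45. An E2F word stood in 7 of 16 replication windows (43.75%), those of Mcm3, Mcm5, Mcm6, Mcm7, Cdc6, Cdt1 and Pola1, and in 1 of 21 mitotic windows, that of Cdk1, beside 2.26% of all windows. CCAAT stood in 19 of 21 mitotic and 12 of 16 replication windows, beside 37.4% of all. TATAAA stood in 0 mitotic windows and 1 replication window, beside 13.6% of all. The 6 windows of G1 regulators held 0 CHR and 0 E2F words. A match is a description of letters and not a site in use.

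Signals are linear MAS5 intensities, scaled by the authors so that the trimmed mean of each array was 500, and a signal cannot be set against that of another probe set as an amount of RNA. A gene was read by its brightest probe set other than those ending in _x_at, whose probes can match several genes, and by an _x_at probe set where it had no other. For Mcm4, Mcm5, Mcm6, Rrm2, Ccne1, Cdc20 and Foxm1 an _x_at probe set was brighter than the one used. Spread is the SD of log2 signal over the 8 mice. The background of an array was taken from 112 genes such as odorant receptors, as the 95th percentile of their 128 probe sets, and was 37.6, 38.1 and 37.3 in mice 1, 7 and 8 and 47.7 to 58.2 in mice 2 to 6. With 8 arrays, the precision of a mean is limited by their number. Arrays correlated at r = 0.945 to 0.960 with each other across probe sets, and the ratio of 3′ to 5′ signal was 1.39 to 1.54 for Gapdh and 1.86 to 2.23 for beta-actin.

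Of the 49 measured members, 34 were above background on all 8 arrays, beside 65.4% of all genes, 15 on some arrays, beside 12.7%, and 0 on no array, beside 21.9%. By class, above background in every mouse were 11 of 24 mitotic genes, 16 of 18 replication genes and 7 of 7 G1 regulators. The markers of the set, Birc5, Top2a and Mcm2, were among them. With the 99th percentile as background, 15 members were above it on all arrays, 0 of them mitotic and 9 replication genes. The share of all genes above that stricter background was not counted, so this loss cannot be called particular to the members. The mean over mice was above the mean background of 46.2 for 39 members (15 mitotic, 17 replication and 7 G1 genes), beside 70.4% of all genes. The counts of spread and correlation below rest on these 39 and leave out 10 members. Those were the mitotic kinases Aurkb, Plk1, Ttk and Nek2, the checkpoint proteins Bub1 and Bub1b, the kinesins Cenpe and Kif23, the transcription factor Foxm1, and thymidylate synthase, Tyms. Nek2 and Tyms exceeded background on 4 arrays each, Aurkb, Plk1 and Cenpe on 2 and the other 5 genes on 1. Aurkb, the kinase that forms a complex with Birc5, had signals from 2.3 in mouse 1 to 60.5 in mouse 3 with a median of 25.2. Values of these 10 genes lie mostly within the background and give no order of mice.

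Mitotic genes varied several fold between the mice. Mki67 had a signal of 32.4 at the lowest, in mouse 7, a median of 197 and 396.5 at the highest, in mouse 3 (mean 202 ± 148, SD, n = 8). Its 4 highest mice were 3, 6, 5 and 4, at 265 or more, and mice 1, 7 and 8 were at 65.2 or less. Birc5, survivin, a subunit of the chromosomal passenger complex, ranged over 69.4, 278 and 658 (lowest, median and highest), a 9.48-fold difference between mouse 7 and mouse 3 (mean 326 ± 229, SD, n = 8). Top2a ranged over 39.1, 162 and 292.5 (mean 169 ± 94.7, SD, n = 8), again with mouse 7 lowest and mouse 3 highest. Prc1, which bundles the microtubules of the central spindle, was lowest in mouse 1 at 32.7, with a median of 119 and 158 in mouse 3. Ccnb2, cyclin B2, was likewise lowest in mouse 1, at 25.1, with a median of 66.3 and 139 in mouse 3. So the same few mice were at the low end for these genes, though the lowest one was mouse 7 for some and mouse 1 for others. The lowest signals of Mki67, Prc1 and Ccnb2 were below the background of their arrays (37.6 in mouse 1, 38.1 in mouse 7). They therefore give no firm order of mice 1 and 7.

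The other mitotic genes above the mean background divided into those with wide and those with narrow spread. Ube2c ranged over 86.1, 192 and 391, Ccna2 (cyclin A2) over 94.5, 165 and 333, Nusap1, a spindle microtubule protein, over 63.7, 172 and 274, and Cdk1 over 50.4, 131 and 229. Cenpa, the histone variant of centromeres, ranged over 57.9, 100.3 and 215. Less spread were Aurka, the spindle pole kinase (40.4, 83.0 and 109.7), its activator Tpx2 (61.5, 102 and 129), Cdc20 (38.7, 77.1 and 95.2), and the kinesins Kif11 (31.2, 50.9 and 83.8) and Kif20a (50.2, 78.5 and 100.3). For Tpx2 and Cdc20 this is the spread of the probe set used. The next probe set was wider, with an SD of 0.68 against 0.36 for Tpx2 and 0.53 against 0.43 for Cdc20. By the probe sets used, the highest signal of Kif20a lay in mouse 8 and the lowest of Kif11 in mouse 5, unlike the rest of the class. For Kif11 that lowest signal was below the background of the array, 47.7. The next probe set of Kif11, nearly as bright (mean 52.1 against 54.1), was lowest in mouse 7 at 17.4 and highest in mouse 6 at 83.1.

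Replication genes were steadier. The sliding clamp Pcna ran from 2436 in mouse 8 to 3578 in mouse 1 around a median of 2999 (mean 2954 ± 376, SD, n = 8). The helicase subunits Mcm4 (679 lowest, 844 median, 924 highest) and Mcm7 (622, 846 and 1067) differed 1.36-fold and 1.72-fold between their extreme mice. Mcm6 ranged over 237, 363.5 and 432, and Mcm3 over 190, 285 and 434. Mcm5 was wider, at 38.4 in mouse 8, a median of 81.2 and 122 in mouse 6. Mcm2 ranged over 158 in mouse 2, a median of 225 and 336 in mouse 4 (mean 231 ± 63.8, SD, n = 8). By this probe set Mcm2 was lowest and highest in mice that were at neither end for Mki67, Birc5 or Top2a. The next probe set of Mcm2 gave another order, with 149.5 in mouse 1 as its highest and 77.0 in mouse 8 as its lowest. The primase subunit Prim1 (658, 721 and 1079), the polymerase subunit Pola1 (182, 221 and 257.5), Rrm1, the large subunit of ribonucleotide reductase (413, 473 and 561), and the helicase partners Gins1 (97.7, 163 and 189), Gins2 (80.0, 104 and 151) and Cdc45 (59.1, 65.6 and 96.8) all stayed within a 2-fold range.

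Exceptions in the replication class were 3 genes with an SD over 0.5. Rrm2, the small subunit of ribonucleotide reductase, ranged from 52.6 in mouse 7 over a median of 173 to 384 in mouse 3, a 7.30-fold difference (mean 186 ± 115, SD, n = 8). Its partner in the same enzyme, Rrm1, differed 1.36-fold. Cdc6, the origin-loading protein, ranged over 22.8, 52.3 and 95.6 and exceeded background on 4 arrays. Tk1, the thymidine kinase of dividing cells, ranged over 42.6, 69.3 and 118. Cdt1, which loads the helicase with Cdc6, ranged over 118, 191 and 258, with an SD of 0.45. In all 4 genes mice 1, 7 and 8 held the 3 lowest signals.

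G1 regulators moved least. Ccnd2 (2272, 2316 and 2546), Ccnd3 (852, 979.5 and 1112) and Ccnd1 (517, 627 and 751), the cyclins D, differed between extreme mice by 1.12-fold, 1.31-fold and 1.45-fold. The inhibitor Cdkn1a ranged over 2793, 2970 and 3268. Cdkn1b ran from 3191 in mouse 1 over 5065 to 6157 in mouse 8, a 1.93-fold difference, but the next probe set of the gene did not follow it (r = -0.28, rho = 0.02, exact permutation p = 0.496, adjusted 0.738). The cyclins E were Ccne1 (52.4, 79.5 and 104) and Ccne2 (143, 271 and 348). Ccne2 had 143 in mouse 1 and 247 or more in the others.

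**Figure D1:**
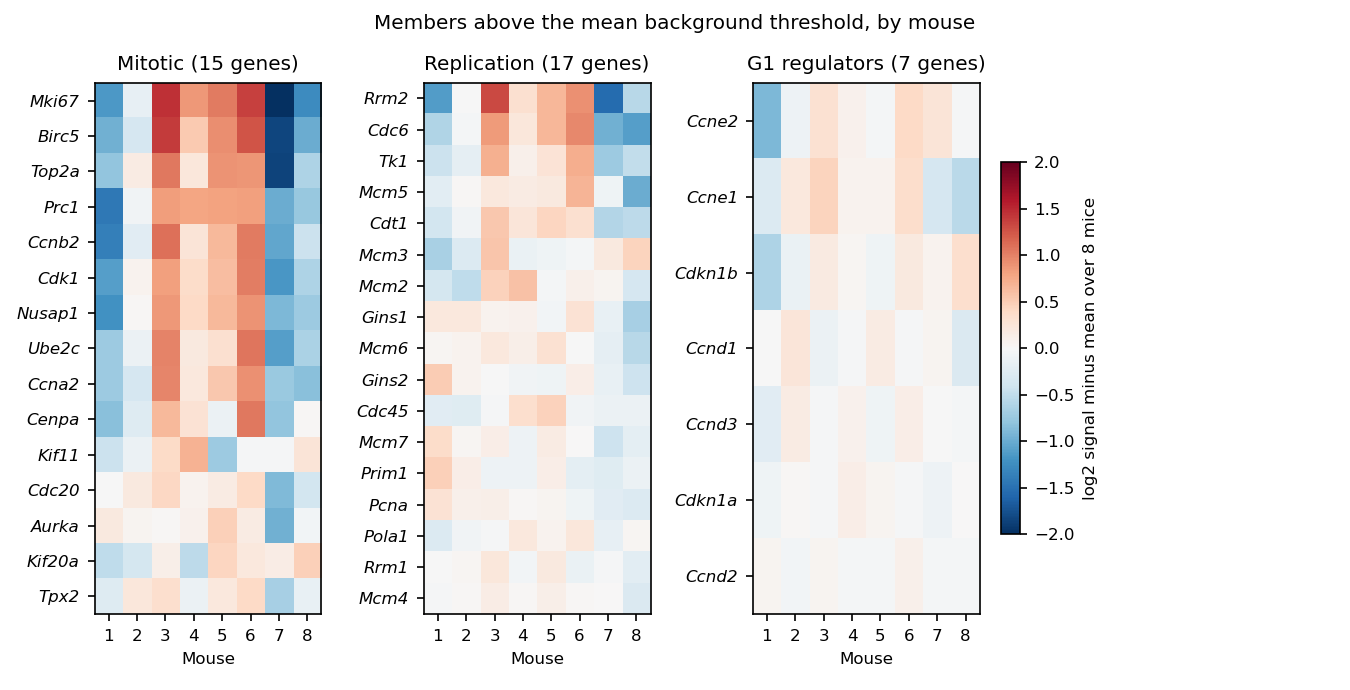
Deviation of log2 signal from the mean over 8 mice for the 39 members above the mean background; columns are mice 1 to 8, rows are genes sorted by SD, in 3 panels by class, with red for higher and blue for lower. Most mitotic genes and Rrm2, Cdc6 and Tk1 are red in mice 3, 5 and 6 and blue in mice 1, 7 and 8, whereas most helicase genes and G1 regulators are pale.

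The median SD (log2) was 0.80 over 15 mitotic genes, 0.27 over 17 replication genes and 0.17 over 7 G1 regulators, beside 0.19 over all 12814 genes above the mean background. An SD over 0.5 was found in 10 mitotic genes, 3 replication genes and 0 G1 regulators, beside 5.57% of all genes. Spread rises as signals come near background, so genes of similar signal were set side by side. Between signals of 128 and 256 the 6 mitotic genes had a median SD of 0.93, the 5 replication genes 0.39 and the 1710 other genes 0.26. Below 128 the medians were 0.45 for 9 mitotic genes, 0.48 for 5 replication genes and 0.35 for 2069 other genes, and an SD over 0.5 was found in 4 of the 9 mitotic genes (44.4%), 2 of the 5 replication genes and 19.8% of the others. At 256 to 512, 3 replication genes had 0.27, against 0.21 for 2023 other genes, and above 512, 4 had 0.21, against 0.15 for 6973 others.

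**Figure D2:**
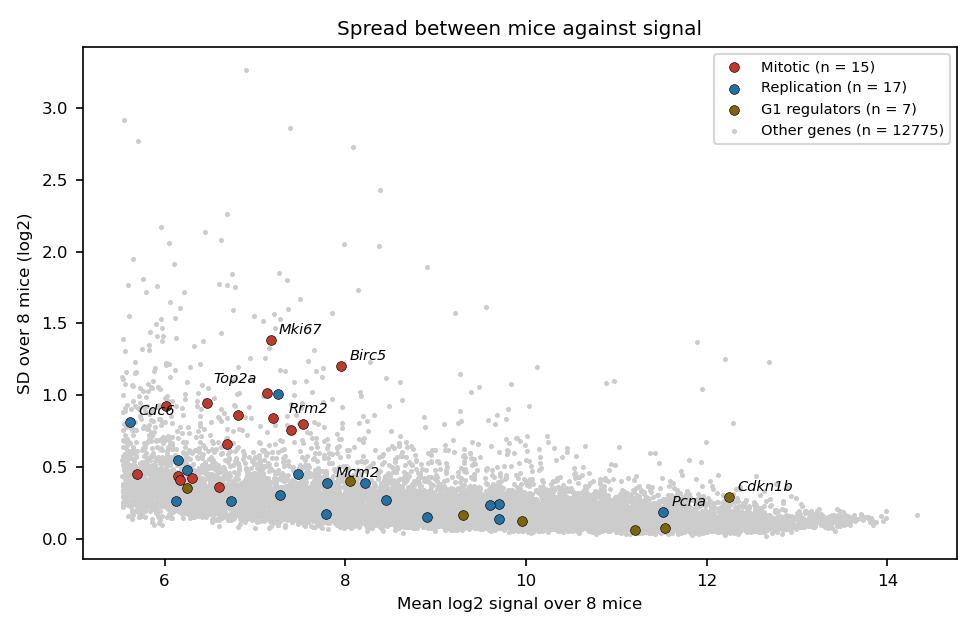
SD of log2 signal over 8 mice (vertical) against mean log2 signal (horizontal) for the members, coloured by class, and all other genes above the mean background in grey. Mki67, Birc5, Top2a and Rrm2 lie above an SD of 1, while Pcna and Cdkn1b have SDs of 0.18 and 0.29.

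The low and high mice were largely shared. Of the 15 mitotic genes, 8 were lowest in mouse 7, beside 8.57% of all genes, and 13 in mouse 1, 7 or 8, beside 50.3%. Highest in mouse 3, 5 or 6 were 13 of them, beside 29.7%. The lowest signals of Mki67, Prc1, Ccnb2 and Kif11 were below the background of their arrays. Of the 17 replication genes, 8 were lowest in mouse 8, beside 18.5% of all genes, 15 in mouse 1, 7 or 8, and 12 were highest in mouse 3, 5 or 6. Both trios of mice were picked with the values in view. The mean deviation of mitotic genes (log2) was -0.997 in mouse 7, -0.75 in mouse 1 and -0.44 in mouse 8, and 0.77 in mouse 6, 0.76 in mouse 3, 0.46 in mouse 5, 0.29 in mouse 4 and -0.08 in mouse 2. That of replication genes ran from -0.37 in mouse 8 and -0.31 in mouse 7 to 0.32 in mouse 3. The range over mice was thus 1.76 for mitotic genes, 0.69 for replication genes and 0.45 for G1 regulators, beside 0.09 over all genes. A mean over all genes of arrays scaled alike stays near 0, so 0.09 is no measure for short lists. Among marker lists the range was 0.16 for 14 cochlear genes, 1.01 for 7 neuron and Schwann cell genes and 3.99 for 12 neutrophil genes.

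The neutrophil and erythroid marker lists were low in mouse 7 and high in mouse 3 as well, with wider ranges (3.99 and 3.74). The megakaryocyte list had a range of 3.03 and was highest in mouse 6. Ranges of the B lineage list (1.31) and the T and NK list (0.67, 2 genes) were narrower than the mitotic 1.76. The summed signal of 14 neutrophil and precursor genes ran from 2019 to 30665, that of 12 erythroid genes from 1577 to 13360 and that of 5 megakaryocyte genes from 396 to 3353, with 0, 3 and 0 genes above background on no array. Mean deviations of the neutrophil list were -2.57 in mouse 7, -1.08 in mouse 1 and 1.43 in mouse 3, and those of the erythroid list -2.32, -0.80 and 1.42 in the same mice. All 12 neutrophil genes and all 8 erythroid genes above the mean background were lowest in mouse 7. Summed osteoblast genes ran from 5165 to 11609, B lineage genes from 5771 to 8267, and macrophage genes from 7136 to 10796. The 14 cochlear genes, all above background on every array, ran from 98701 to 122949, with mean deviations of -0.10 to 0.06. Background probe sets deviated too, by -0.30 in mouse 1, -0.19 in mouse 7, 0.36 in mouse 3 and 0.32 in mouse 6, and by -0.13 in mouse 5, where mitotic genes were high. The part of these cell types and of the background in the spread of the members was not tested.

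**Figure D3:**
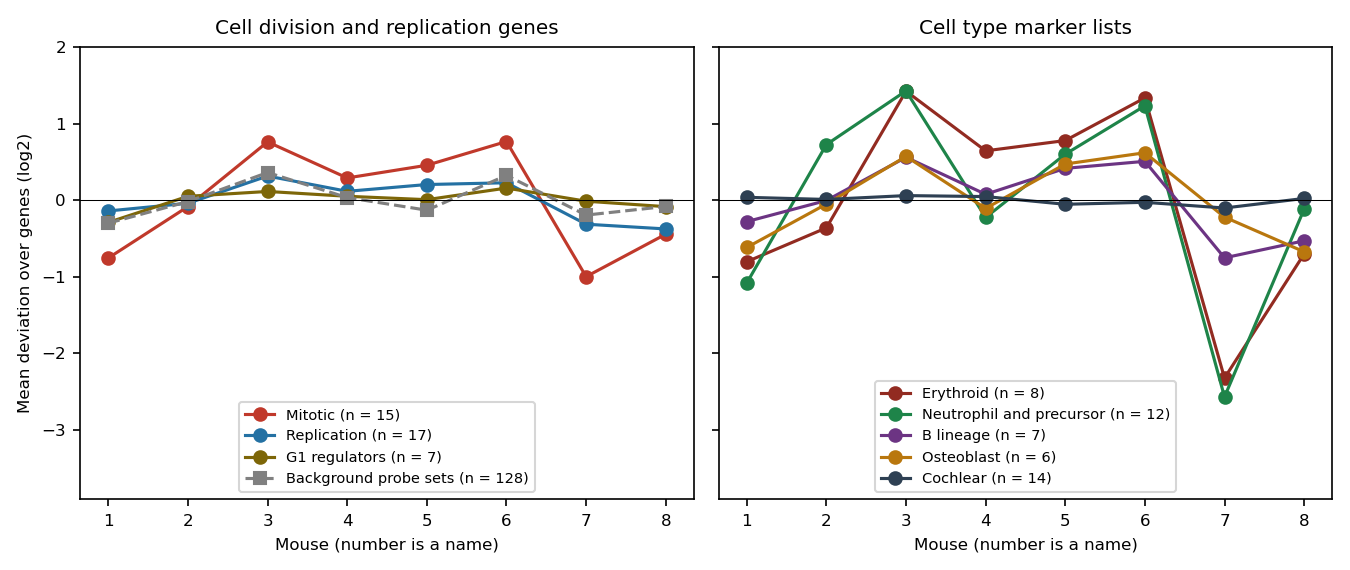
Mean deviation of log2 signal from the mean over mice, per mouse (lines join points of a list and mice have no order), for 3 classes of members and the background probe sets (left) and for 5 marker lists (right). Mitotic genes are lowest in mouse 7 at -0.997, erythroid and neutrophil genes are at -2.32 and -2.57 there, and cochlear genes stay between -0.10 and 0.06.

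Every gene above the mean background was then correlated with Top2a across the 8 mice on the log2 scale. By the two-sided exact permutation test over all pairings of the mice, 0 of 12813 genes passed after Benjamini-Hochberg adjustment (0% of all genes in either direction), and 0 of 38 members. The smallest p that the pairings gave was 4.96e-05. At an unadjusted exact p under 0.05, 12 of 14 mitotic genes, 4 of 17 replication genes and 1 of 7 G1 regulators correlated positively with Top2a, beside 2.79% of all genes. Rrm2 had the highest correlation among members (r = 0.97, rho = 0.98, exact permutation p = 4.96e-05, adjusted 0.159, and adjusted 0.406 for rho). Birc5 followed (r = 0.97, rho = 0.95, exact permutation p = 9.92e-05, adjusted 0.159), then Mki67 (r = 0.97, rho = 0.95, exact permutation p = 0.000149, adjusted 0.159) and Cdk1 (r = 0.95, rho = 0.93, exact permutation p = 0.000149, adjusted 0.159). Without mice 7 and 1, the farthest from the median of Top2a, r was 0.96 for Rrm2, 0.96 for Birc5, 0.94 for Mki67 and 0.96 for Cdk1.

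Median r with Top2a was 0.91 over the 14 mitotic genes, 0.50 over the 17 replication genes and 0.31 over the 7 G1 regulators, beside -0.03 over all genes. The mitotic genes outside this were Kif11 (r = 0.03) and Kif20a (r = 0.12). For Kif11 the next probe set, nearly as bright, had another order of mice, with its lowest signal in mouse 7. In the replication class Rrm2, Cdt1 (r = 0.94), Tk1 (r = 0.93) and Cdc6 (r = 0.92) lay apart from the rest, of which Pola1 (r = 0.63) was highest and Prim1 (r = -0.01) lowest. Without mice 7 and 1 the median was 0.73 for replication genes. The helicase genes then differed, with r = 0.91 for Mcm4, 0.87 for Mcm5, 0.86 for Mcm7 and 0.84 for Mcm6, but 0.50 for Mcm2 and -0.08 for Mcm3. With all 8 mice r was 0.50 for Mcm4, 0.58 for Mcm5, 0.52 for Mcm7, 0.61 for Mcm6, 0.35 for Mcm2 and 0.10 for Mcm3. Each value rests on 1 probe set. Between that and the gene's next probe set, r was 0.87 for Mcm7, 0.70 for Mcm6 and 0.46 for Mcm5. It was 0.32 for Mcm3, 0.15 for Mcm4 and -0.04 for Mcm2. Among G1 regulators Ccne1 was the one at an unadjusted exact permutation p under 0.05 (r = 0.83, p = 0.0103, adjusted 0.779). The genes share arrays, so their correlations are not independent of each other.

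A moderated linear fit of log2 signal on log2 Top2a signal (limma), added after the data were seen, called 47 genes with a positive slope at an adjusted p under 0.05 (0.367% of all genes) and 0 with a negative one, beside 194 genes (1.51%) at an unadjusted negative exact p under 0.05. It called 7 of 14 mitotic genes, 4 of 17 replication genes and 0 of 7 G1 regulators. The mitotic genes were Mki67, whose log2 signal rose by 1.32 ± 0.12 (SE) for each log2 unit of Top2a (limma adjusted p = 0.00381), Birc5, Ccnb2, Cdk1, Nusap1, Ube2c and Tpx2, with slopes of 0.34 to 1.15 for the last 6. The replication genes were Rrm2 (slope 0.97 ± 0.08 SE, limma adjusted p = 0.00381), Cdc6, Tk1 and Cdt1. With the other Top2a probe set, and without mice 7 and 1, limma called 0 genes. Leaving out 1 mouse at a time, Birc5, Mki67 and Rrm2 were called in all 8 fits, and the count over all genes ran from 8 to 55. It was 8 without mouse 3, 16 without mouse 6, 27 without mouse 5 or mouse 7 and 28 without mouse 1. Mitotic calls numbered 2 without mouse 3 and 4 without mouse 2, 4, 5 or 6, and replication calls 1 without mouse 1, 3, 4, 5 or 6 and 2 without mouse 2 or 7.

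**Figure D4:**
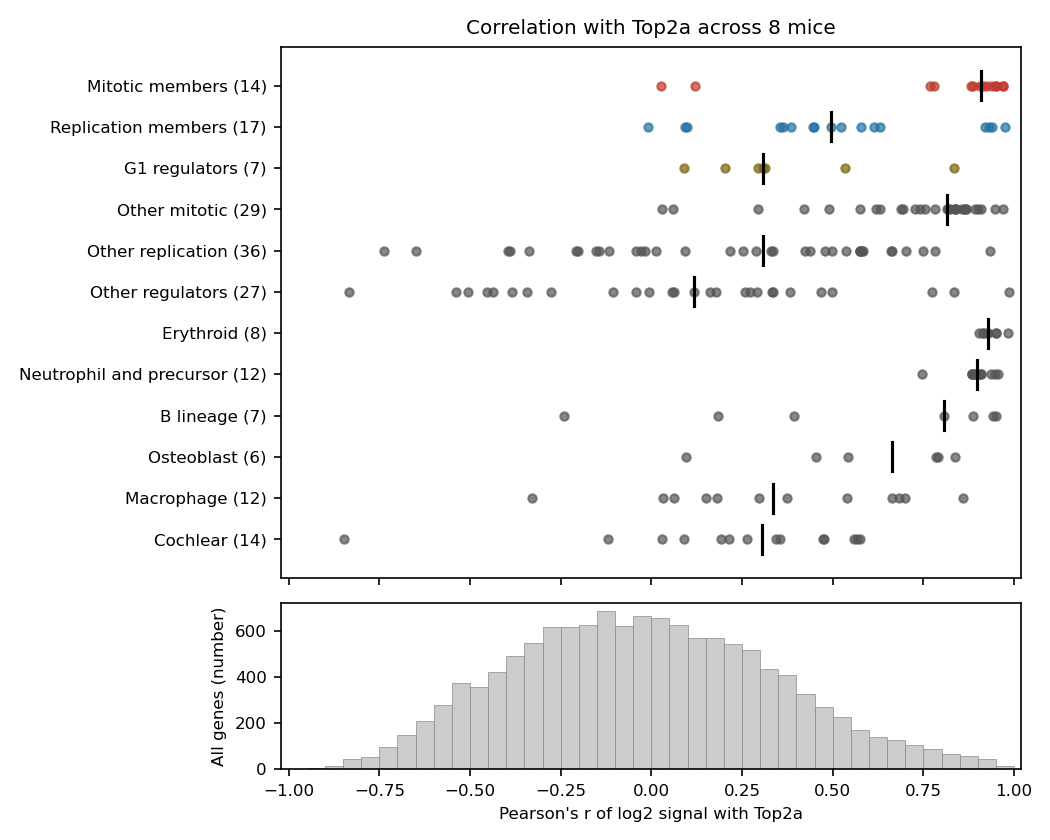
Pearson's r of log2 signal with Top2a across 8 mice for each gene of 12 lists (points; vertical bars are medians; gene numbers in brackets), above the distribution over all genes. Mitotic members have a median of 0.91 and replication members of 0.50, and the erythroid and neutrophil lists lie at 0.93 and 0.90.

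Further genes of the pathway gave a like division. Of 50 other mitotic genes listed, 50 were measured and 29 were above the mean background, with a median r of 0.82, and 19 had an unadjusted exact p under 0.05 with positive r. Highest were Ncapg, a condensin subunit (44.1 lowest, 97.0 median, 166 highest, r = 0.97), the shugoshin Sgo2a, which guards sister chromatid cohesion (30.4, 76.0 and 107, r = 0.95), and Tacc3, a spindle protein (r = 0.91), and lowest was Anln, anillin of the cleavage furrow (r = 0.03). Of 44 other replication genes, 41 were measured and 36 were above the mean background, with a median r of 0.31 and 4 positive and 1 negative at that p. Uhrf1, which keeps DNA methylation through replication, had r = 0.93, Pole r = 0.78 and Dut r = 0.75, while the origin protein Orc2 had r = -0.74. Of 27 other regulators the median was 0.12. E2f8, an atypical E2F that represses transcription, had the highest r of all genes (20.4 lowest, 89.6 median, 150 highest, r = 0.99, exact permutation p = 0.000149, adjusted 0.159), followed in its list by E2f2 (r = 0.83) and Cdk6 (r = 0.77), with E2f3 lowest (r = -0.83). Limma called Ncapg, Sgo2a, Uhrf1 and E2f8 in these 3 lists.

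Erythroid and neutrophil marker genes had medians of r near the 0.91 of the mitotic members over all 8 mice. The medians of the B lineage (0.81), megakaryocyte (0.77) and T and NK lists (-0.18) were lower. All 8 erythroid genes (median r 0.93) and all 12 neutrophil genes (median r 0.90) had an unadjusted exact p under 0.05, and limma called 7 and 6 of them. Without mice 7 and 1 the median was 0.89 for erythroid and 0.67 for neutrophil genes, beside 0.91 for mitotic members, and limma called 0. Without these mice the median was not highest in blood-forming lists. It was 0.96 for osteoblast, 0.90 for B lineage, 0.89 for osteoclast (2 genes), 0.71 for megakaryocyte and 0.58 for macrophage genes. Cochlear genes had -0.05 and T and NK genes (2 genes) -0.21. With 1 mouse left out, limma called 1 erythroid gene without mouse 3, 2 without mouse 7, 3 without mouse 6 and 4 without mouse 1 or 5. It called 0 neutrophil genes without mouse 3 or 7, 2 without mouse 1 or 6 and 10 without mouse 8. Slc4a1, the anion exchanger of red cells, ranged over 38.4, 697 and 1784 (r = 0.98), Ermap had r = 0.95, Hbb-b2, a beta globin whose gene copies may share probes, had r = 0.95, and Car1 was lowest of its list (r = 0.90). Mpo, the peroxidase of early granules, ranged over 31.1, 398 and 1014 (r = 0.96), with Ctsg (r = 0.95), Chil3 (r = 0.94) and, lowest, Elane (r = 0.75). The B lineage list (7 genes, median r 0.81) had Cd79a, Cd79b and Vpreb3 highest at 0.95, 0.94 and 0.89 and Rag1 lowest at -0.24. Megakaryocyte genes ranged from Ppbp (r = 0.86), Pf4 (r = 0.82) and Gp9 (r = 0.71) to Itga2b (r = 0.27), and osteoblast genes from Col1a1 (r = 0.84), Ibsp and Phex (r = 0.79 each) to Alpl (r = 0.09). Of macrophage genes Cd163 (r = 0.86), Adgre1 (r = 0.70) and Lyz2 (r = 0.68) were highest and Cd74 lowest (r = -0.33), and the osteoclast genes above the mean background were Acp5 (r = 0.76) and Ctsk (r = 0.45). The T and NK genes were Cd2 (r = 0.09) and Cd247 (r = -0.45).

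Genes of the cochlea itself had lower correlations with Top2a. Over 14 cochlear genes the median r was 0.30, with Gjb6 (r = 0.57), Kcnj10 (r = 0.57) and Coch (r = 0.56) highest and Otof, otoferlin of the hair cell synapse, lowest (r = -0.85). Neuron and Schwann cell genes ranged from S100b (r = 0.39), Mbp (r = 0.14) and Stmn3 (r = -0.23) to Snap25 (r = -0.37). Outside all lists the 10 genes with the highest r were Hemgn, a nuclear protein of blood-forming cells (15.5 in mouse 7, 571 in mouse 3, r = 0.97), Ighm, the histone chaperone Asf1b, the leukocyte integrin Itgb2, Cldn13, Nrp1, the chemokines Ccl9 and Ccl6, D17H6S56E-5 and Fam111a, the last 9 with r of 0.94 to 0.96. None passed the exact test after adjustment.

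No member passed a test against Mcm2, the marker of the replication class. By the exact test, which could not call a lone gene after adjustment, 0 of 12813 genes passed in either direction (0%), and limma called 0. At an unadjusted exact p under 0.05, 0 of 38 members correlated with it, beside 2.49% of all genes positive and 4.13% negative. Median r with Mcm2 was 0.53 over 15 mitotic genes and 0.44 over 16 other replication genes, beside -0.07 over all genes. Among the helicase subunits r was 0.50 for Mcm5, 0.48 for Mcm4, 0.40 for Mcm6, 0.37 for Mcm3 and -0.17 for Mcm7. Outside all lists Lig4 had the highest r (r = 0.95, rho = 0.95, exact permutation p = 0.000521, adjusted 0.727). The next probe set of Mcm2 had 149.5 in mouse 1 as its highest and 77.0 in mouse 8 as its lowest, and did not follow the brighter one (r = -0.04, rho = -0.12, exact permutation p = 0.932, adjusted 0.969). No statement on the order of mice for Mcm2 therefore holds across its probe sets.

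Probe sets of a gene are separate measurements on the same arrays, and 23 members had a pair of them to compare. The exact permutation test, adjusted over 5953 genes, called 3 of 23 pairs, beside 4.03% of all pairs. They were those of Rrm2 (r = 0.99, rho = 1, adjusted exact p = 0.0211), Ccna2 (r = 0.93, rho = 0.95, adjusted exact p = 0.0473) and Tpx2 (r = 0.90, rho = 0.90, adjusted exact p = 0.0301). Rrm2 alone of these members passed by rho as well (adjusted exact p = 0.0328), and with any 1 mouse left out 0 pairs of members were called. With a mouse left out there are fewer pairings and the least exact p is larger. A pair can then pass adjustment only if many pairs reach that p, so this loss does not measure agreement. Prc1 (r = 0.90), Cdt1 (r = 0.89) and Mcm7 (r = 0.87) had adjusted exact p of 0.0560, 0.0548 and 0.0651. The pair of Top2a had r = 0.74 (rho = 0.88, adjusted exact p = 0.180), with an SD of 1.01 in the brighter and 0.36 in the dimmer probe set. The median r of pairs was 0.90 over 5 mitotic genes, 0.46 over 12 replication genes and 0.09 over 6 G1 regulators, beside 0.29 over all pairs.

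**Figure D5:**
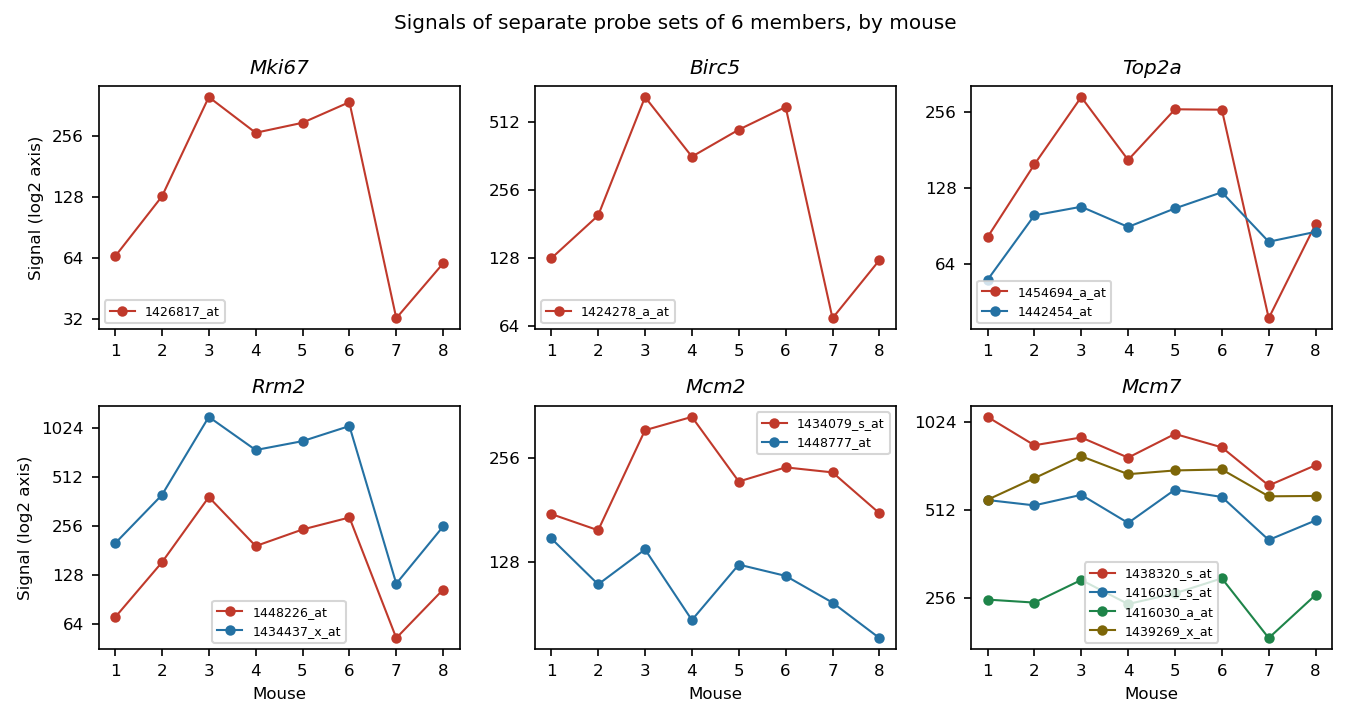
Signals (log2 axis) of the probe sets above background on at least 4 arrays, per mouse, for 6 members; lines join points of a probe set and mice have no order. Both probe sets of Rrm2 fall and rise in the same mice, whereas those of Mcm2 do not follow each other (r = -0.04).

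The promoter words and the correlations can be set side by side as a description. Of 11 mitotic genes with both a window and a correlation, 9 held a CHR word and had r with Top2a of 0.03 to 0.97 (median 0.91), and Birc5 and Nusap1 held none and had 0.97 and 0.91. Of 14 such replication genes, 7 held an E2F word, with r of 0.10 to 0.94 (median 0.61), and 7 held none, with r of -0.01 to 0.97 (median 0.45). Within each class genes with and without its word thus covered overlapping ranges, and Rrm2, without either, had the highest r of all members.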

How the data were processed

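RNA of the cochleae of 8 mice was measured on 1 array each, after amplification and biotin labelling per the labels' protocols. The deposited values are linear intensities per probe set, computed by the authors with MAS5 per the submitters' processing notes (version: not given in the sources used here). Without the lowest and highest 2% the mean was 500.0 on every array, so the authors' scaling was common to all. Detection calls were not used, and the table held 0 columns of other samples.

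Of 45101 probe sets, 34958 named 1 gene in the platform annotation, 932 several and 9211 none here, and 34754 were matched by Entrez identifier, of which 0 changed symbol. Values under 1 were set to 1 and log2 taken. A gene was read by the probe set with the highest mean, those ending in _x_at used where no other existed. Background genes were olfactory, vomeronasal, keratin-associated and protamine genes, chosen by symbol.

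Older symbols in the lists were replaced through RefSeq synonyms. The members, lists and tests were chosen with earlier results of these data known. Named genes are all members, of each other list the 3 genes with the highest and the 1 with the lowest correlation with Top2a, and the 10 highest outside the lists; Lig4 was chosen after its values were seen. Correlations and probe set pairs were tested by exact permutation with Benjamini-Hochberg adjustment over all genes tested, at a threshold of 0.05. The limma fits and unadjusted counts were added after the data were seen. A difference between mice may also hold assay error. Alternatives were normalization, scaling, an added 32 before log2, probe set choice, background percentile, filter, correlation measure, anchor probe set, strand, and each mouse left out. Promoters came from RefSeq. The tests were checked on simulated data. Python 3.11.15 (numpy 2.4.6, pandas 2.3.3, scipy 1.17.1, matplotlib 3.10.9) and R 4.3.3 with limma 3.58.1 were used.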

Additional observations from a re-analysis of the deposited data

Results flagged for a closer look

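In 4 of 39 members tested, 1 mouse lay far from the other 7, by Dixon's ratio of the gap to the nearest value over the whole range, computed on log2 signals and above its 95% critical value. Chance flags about 1 in 20 genes, and 12.5% of all 12814 genes were flagged, so the members' share of 10.3% is near that of all genes. Aurka had 40.4 in mouse 7, while the other mice had 76.2 to 109.7 (ratio 0.635). Ccne2 had 143 in mouse 1, and 247 to 348 in the others (ratio 0.617). In mouse 8, Mcm4 had 679, and 823 to 924 in the others (ratio 0.624), and Gins1 had 97.7, and 140 to 189 in the others (ratio 0.545). The low value of Mcm4 rests on 1 probe set, since another, an _x_at probe set, had 1664 in mouse 8 and its lowest signal, 1102, in mouse 1. The cause of these values was not tested.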

How the results depend on the processing

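No paired analysis was possible because the mice form 1 group. Of 349 alternative values, 282 kept their direction and stayed near the value reported, 67 changed in size or lost a call, and 0 reversed. Only the median r and the range difference could reverse, since counts and SDs have no sign. A count of 0 that stayed 0 was among those kept, so the tally is not a measure of robustness. With the background at the 99th percentile, 15 members were above it on all arrays (0 mitotic, 9 replication), 4 mitotic genes were lowest in mouse 7, the mitotic range exceeded the replication range by 1.98 instead of 1.07, 1 probe set pair was called, and 5 mitotic and 2 replication genes had an unadjusted p under 0.05 with Top2a. The share of all genes above that background was not counted. The mean of all probe sets gave 7 mitotic genes above background on all arrays. Adding 32 gave a median mitotic SD of 0.64, and leaving out _x_at and _s_at probe sets a replication SD of 0.30 and a median mitotic r with Mcm2 of 0.33. By Spearman's rho 1 pair was called, as at the 75th percentile background, the median replication rho with Top2a was 0.62, and 7 replication genes had an unadjusted p under 0.05. The second Top2a probe set gave median r of 0.77 (mitotic) and 0.35 (replication), and the 75th percentile or no filter 0.79 (mitotic). Without mice 7 and 1 the replication median was 0.73, with 8 genes at an unadjusted p under 0.05. The second Mcm2 probe set gave a median mitotic r of 0.32.

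Limma calls on Top2a changed most. The second Top2a probe set, and leaving out mice 7 and 1, gave 0 genes in all, 0 mitotic and 0 replication. Counts over all genes were 7 with the mean of all probe sets, 21 at the 99th percentile and 13 with no filter. Mitotic counts were 1, 4 and 2 in these, and 4 at the 75th percentile. Replication counts were 0, 2 and 1, with 1 at the 75th percentile and 2 under quantile normalization, which also gave 1 call on Mcm2. The cause of these changes was not tested.

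Leaving out 1 mouse at a time gave 34 to 35 members above background (11 to 12 mitotic, 16 replication in each), median SDs of 0.72 to 0.86 (mitotic) and 0.25 to 0.29 (replication), 8 to 12 mitotic genes lowest in mouse 7 (not counted where mouse 7 was left out; 12 without mouse 1), a range difference of 0.88 to 1.29 and 0 probe set pairs called. Top2a and Mcm2 had 0 exact calls. With a mouse left out the exact test has fewer pairings and a larger least p. These 0 counts of pairs and genes therefore do not measure dependence on a mouse. Median r with Top2a was 0.89 to 0.94 (mitotic) and 0.43 to 0.58 (replication), with 11 to 12 and 3 to 6 genes at an unadjusted p under 0.05. Median r with Mcm2 was 0.42 to 0.67 (mitotic) and 0.31 to 0.49 (replication). Limma on Top2a called 8 to 55 genes, 2 to 6 mitotic and 1 to 3 replication, and on Mcm2 0.

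Signals near background, 8 mice and 1 array a mouse limit the precision. Members below background were not shown to be silent.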
